A study of Rattus norvegicus with 6 samples.

Results

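The genes described here encode 10 enzymes listed together under formaldehyde clearance, aldehyde oxidation and one-carbon metabolism: Adh5, Esd, Aldh2, Aldh1a1, Aldh7a1, Aldh9a1, Aldh1l1, Mthfd1, Shmt1 and Dmgdh. They were taken by name, and a probe counted for a gene when the RefSeq accession given for it in the scanner files belonged to that gene. By this rule 9 of the 10 had a probe, out of 15645 named genes on the array, and Shmt1, the cytosolic serine hydroxymethyltransferase, is not analysed here. The study set 3 male Sprague-Dawley rats dosed with N,N'-dinitrosopentamethylenetetramine (DNPT) at 200 mg/kg/day against 3 male Sprague-Dawley rats dosed with corn oil (the vehicle), in both cases for 4 weeks. All were bought at 5 weeks of age, kept on a basal diet, and sampled in the renal cortex, with 1 array per rat. The labels number the rats of a group as replicates. DNPT is a dinitroso compound prepared from hexamethylenetetramine, which is itself made from formaldehyde and ammonia. Exposure to formaldehyde was not measured in these rats.

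Formaldehyde binds glutathione without the help of an enzyme. Adh5, the glutathione-dependent formaldehyde dehydrogenase, oxidises that adduct, and Esd, the S-formylglutathione hydrolase, splits the product into formate and free glutathione. Aldehyde dehydrogenases, chiefly mitochondrial Aldh2, oxidise formaldehyde and other aldehydes directly. Formate is attached to tetrahydrofolate by the trifunctional enzyme Mthfd1, and Aldh1l1 oxidises the resulting formyl-folate to carbon dioxide, while Dmgdh passes the methyl groups of dimethylglycine to folate in mitochondria. The kidney cortex consists mostly of proximal tubule, a segment rich in oxidative and amino acid metabolism.

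Each value below is the log2 of a probe's processed signal relative to the 75th percentile of its array, so that 1 unit is a doubling and negative values lie under that percentile. A change is the DNPT mean minus the vehicle mean, given with the standard error (SE) of a limma fit across 34915 features (12687 named genes and the unnamed probes), and adjusted p-values were corrected over all of them by the Benjamini-Hochberg method. Where a gene had several probes, the brightest one represents it. Of 61537 probes, between 42116 and 43402 were well above background on an array of a DNPT rat, and between 44730 and 45167 on one of a vehicle rat. The 75th percentile of the signal was also lower in DNPT rats, at 953 to 1112 against 1164 to 1329 in vehicle rats. Each change is relative to that percentile. Slide 1 held DNPT replicate 1 together with the 3 vehicle samples, whereas DNPT replicates 2 and 3 were on slide 2, so a value from slide 1 alone rests on 1 DNPT rat. The 2 slides were scanned on different days. In any value without DNPT replicate 1, treatment thus cannot be told apart from slide and scan day. An exact permutation test of 3 against 3 rats cannot give a two-sided p under 0.1. All 14 proximal tubule genes examined, the defining markers of cortex, were well above background on every array. So were 4 of 5 genes of the distal convoluted and connecting tubule, the exception being Pvalb, and all 4 inner medulla genes, so these markers do not show tissue free of medulla.

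None of the 9 genes passed the test at an adjusted p under 0.05, and 0% of all features did. In these rats the 9 transcripts differed between the groups by small amounts, with a median of 0.13. The changes ran from 0.02 for Dmgdh to 0.25 for Aldh7a1 (a 1.01-fold and a 1.19-fold difference). All 9 changes were positive, where 51.9% of all features had a positive change. An unadjusted p under 0.05 was reached by 1 gene, Aldh7a1, against 12.1% of features. Every DNPT rat exceeded every vehicle rat in 5 of the 9 genes (Aldh2, Aldh1a1, Aldh7a1, Aldh9a1 and Mthfd1) and was lower than every vehicle rat in 0. Over all features 11.9% had DNPT higher in this way, 8.32% had DNPT lower, and 20.2% had either. These counts rest on the brightest probe of each gene. Of all 15 probes of the 9 genes, 6 were free of overlap. Scaling to the median in place of the 75th percentile raised the change of each of these genes by the same amount (median 0.15). It therefore could not turn a positive change negative, and 9 of 9 stayed positive. With it 5 of 9 genes were free of overlap, all with DNPT higher, as were 4824 of 34915 features. With quantile normalization 5 of 9 changes were positive, against 49.7% of all features, and 0 of 9 genes were free of overlap. Of the 34915 features, 3441 then had every DNPT rat higher and 3073 had every DNPT rat lower. With 1 rat left out in turn the median over the 9 genes ran from 0.08 (without DNPT replicate 2) to 0.16 (without DNPT replicate 1).

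**Figure D1:**
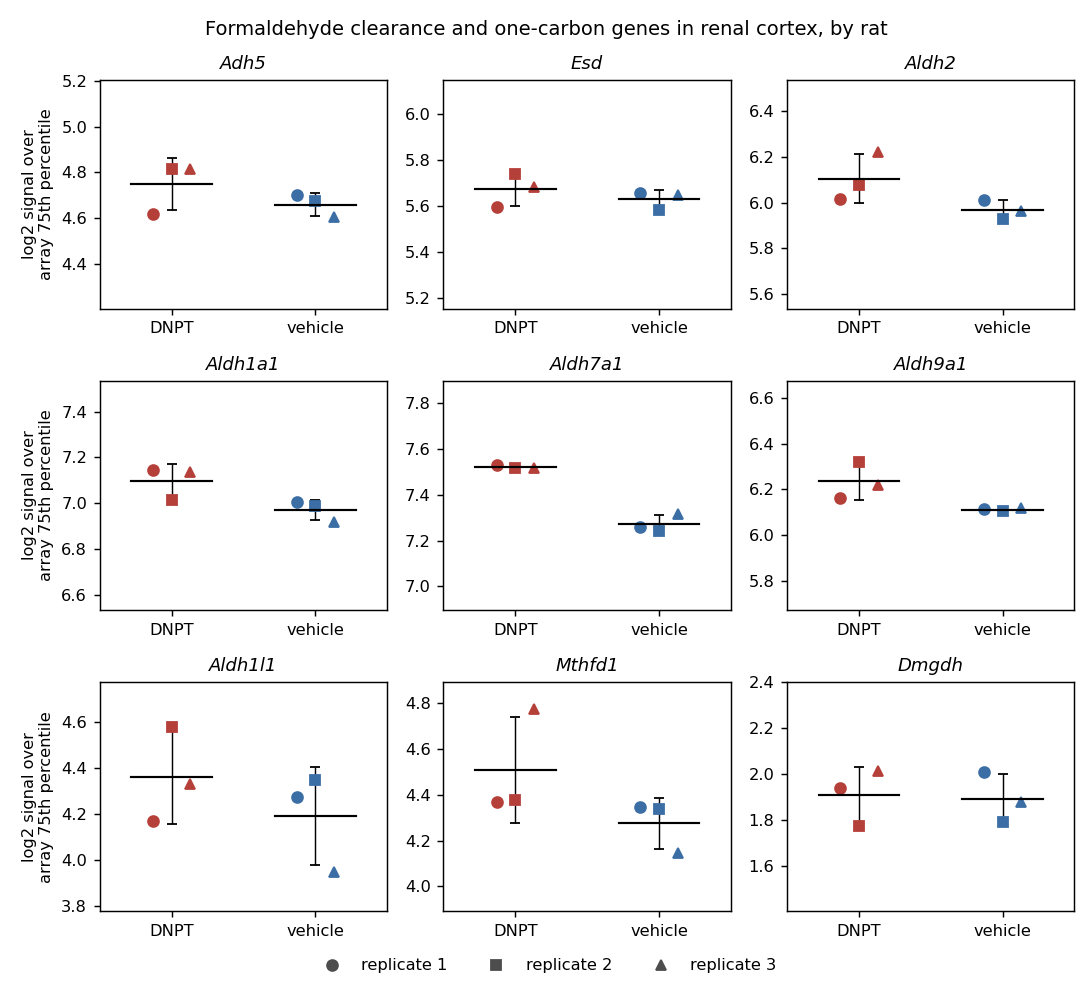
Signal of each of the 9 genes in each rat (vertical axis, log2 over the array's 75th percentile; each panel spans 1 unit), with DNPT rats in red and vehicle rats in blue, marker shapes for replicate numbers, and lines for the mean ± SD of 3 rats. The groups are apart in Aldh2, Aldh1a1, Aldh7a1, Aldh9a1 and Mthfd1 and overlap in Adh5, Esd, Aldh1l1 and Dmgdh.

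The glutathione-dependent route showed no difference beyond the spread between rats. Adh5 was at 4.62, 4.81 and 4.81 in DNPT rats and at 4.70, 4.67 and 4.60 in vehicle rats. DNPT replicate 1 lay within the vehicle range and the other two lay above it. The change of 0.09 (SE 0.09, adjusted p = 0.682) has a 95% interval of -0.14 to 0.32, or a 0.910-fold to 1.24-fold level. The second Adh5 probe had a change of -0.01 (SE 0.09), and quantile normalization gave -0.00051 for the brighter one. For Esd, the next enzyme of the route, the signal was 5.60, 5.74 and 5.68 in DNPT rats, against 5.66, 5.58 and 5.65 in vehicle rats. The groups overlapped, with a change of 0.04 (SE 0.08, adjusted p = 0.834, 95% interval -0.16 to 0.24) that became -0.06 with quantile normalization. On slide 1, where only DNPT replicate 1 stands for its group, Adh5 was at -0.04 and Esd at -0.03 relative to the vehicle mean. With 1 rat left out, Adh5 ran from 0.06 (without DNPT replicate 2 or 3) to 0.15 (without DNPT replicate 1), and Esd from 0.01 (without DNPT replicate 2) and 0.02 (without vehicle replicate 2) to 0.08 (without DNPT replicate 1).

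Aldh7a1 had the smallest p of the aldehyde dehydrogenases, although it did not pass. This enzyme, known as antiquitin, oxidises the semialdehyde formed in lysine breakdown and also accepts betaine aldehyde. Its signal was 7.53, 7.52 and 7.52 in DNPT rats, against 7.26, 7.24 and 7.32 in vehicle rats. The DNPT rats were almost identical and all lay above the vehicle rats, with an SD of 0.0085 in DNPT rats and of 0.04 in vehicle rats. The change was 0.25 (SE 0.07, unadjusted p = 0.0145, adjusted p = 0.374), a 1.19-fold difference with a 95% interval of 1.05 to 1.35, and the exact permutation p was 0.1, the smallest possible. DNPT replicate 1, on the slide of the vehicle rats, differed from their mean by 0.26, while replicates 2 and 3 on the other slide differed by 0.24 and 0.25. A second probe of the gene gave a change of 0.30 (SE 0.07), and the third and dimmest gave 0.14 (SE 0.09) with overlapping groups. With quantile normalization the change of the brightest probe was 0.10 (SE 0.08, unadjusted p = 0.268) and its groups overlapped. Before any scaling, the signal of that probe was 205704, 174358 and 182546 in DNPT rats, against 190826, 200917 and 185398 in vehicle rats. Here too the groups overlapped, as they did before scaling in Aldh2, Aldh1a1, Aldh1l1 and Mthfd1. In Adh5, Esd, Aldh9a1 and Dmgdh every DNPT rat was lower than every vehicle rat before scaling. Aldh9a1, for example, was at 79715, 76099 and 74168 in DNPT rats, against 86289, 91424 and 80867 in vehicle rats. The share of all features lower in this way before scaling was not counted.

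Aldh2, the mitochondrial enzyme for acetaldehyde and formaldehyde, had a signal of 6.02, 6.08 and 6.22 in DNPT rats, against 6.01, 5.93 and 5.96 in vehicle rats. The groups did not overlap, but DNPT replicate 1 lay only just above vehicle replicate 1. In the second probe the groups did overlap, with DNPT replicate 1 (5.775) just below vehicle replicate 1 (5.777). The change was 0.14 (SE 0.09, adjusted p = 0.530, 95% interval -0.08 to 0.36), with 0.17 (SE 0.10) from the second probe, 0.05 on slide 1 alone, 0.08 without DNPT replicate 3 and 0.03 with quantile normalization. Aldh1a1, a cytosolic enzyme that makes retinoic acid from retinal, was at 7.14, 7.01 and 7.13 in DNPT rats and at 7.00, 6.99 and 6.92 in vehicle rats. Here too the groups were apart, by a change of 0.13 (SE 0.08, adjusted p = 0.523, 95% interval -0.07 to 0.33). Its probes disagreed, since the second one had a change of -0.07 (SE 0.11) with overlapping groups, and quantile normalization gave -0.0088 for the brighter probe.

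Aldh9a1 oxidises the trimethylated aldehyde on the way to carnitine. The signal was 6.16, 6.32 and 6.22 in DNPT rats, against 6.11, 6.10 and 6.12 in vehicle rats. The vehicle rats were within an SD of 0.0077, the smallest of the vehicle SDs among these genes, and the DNPT rats all lay above them with a wider spread, an SD of 0.08. The change of 0.12 (SE 0.08, adjusted p = 0.530, 95% interval -0.07 to 0.32) was 0.05 for the dimmer probe, 0.05 on slide 1 alone, 0.08 without DNPT replicate 2 and 0.02 with quantile normalization. In the dimmer probe the groups overlapped, with vehicle replicate 3 (3.20) above every DNPT rat.

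Mthfd1, the entry point of formate into folate, was highest in 1 DNPT rat. Its signal was 4.37, 4.38 and 4.77 in DNPT rats, against 4.35, 4.34 and 4.15 in vehicle rats. DNPT replicate 3 lay 0.50 above the vehicle mean, while replicates 1 and 2 lay 0.09 and 0.10 above it, so the groups were apart. The change was 0.23 (SE 0.14, adjusted p = 0.510, 95% interval -0.12 to 0.58), and without replicate 3 it was 0.10 (SE 0.11). Aldh2 was also highest in DNPT replicate 3, and the Pearson correlation of the Mthfd1 and Aldh2 signals over the 6 rats, 0.90, was the highest among the 36 pairs of these genes, which share the same arrays. Liver and plasma protein transcripts were highest in the same rat. Their summed signal, relative to the 75th percentile, was 3.83, 3.13 and 32.4 in DNPT replicates 1 to 3 and between 3.14 and 5.99 in vehicle rats. Of the 12 genes in that list 10 were tested, all with positive changes, while without DNPT replicate 3 the changes of 3 of 10 were positive, and the hepatocyte enzymes Cps1 and Tat were not well above background on any array. The part of these transcripts in the Mthfd1 and Aldh2 values was not tested.

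Aldh1l1, which removes formyl groups from folate, was the most variable gene in vehicle rats (SD 0.21). It was at 4.17, 4.58 and 4.33 in DNPT rats and at 4.28, 4.35 and 3.95 in vehicle rats, so that the groups overlapped widely. Its change was 0.17 (SE 0.16, adjusted p = 0.653, 95% interval -0.22 to 0.56), and on slide 1 alone it was -0.02. It was 0.05 without vehicle replicate 3, 0.06 without DNPT replicate 2 and 0.27 without DNPT replicate 1. Dmgdh, the mitochondrial dimethylglycine dehydrogenase, had a signal of 1.94, 1.77 and 2.01 in DNPT rats, against 2.01, 1.79 and 1.88 in vehicle rats. The ranges nearly coincided. The change of 0.02 (SE 0.11, adjusted p = 0.957) had a 95% interval of -0.24 to 0.28, and was -0.02 with quantile normalization and -0.04 without DNPT replicate 3.

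**Figure D2:**
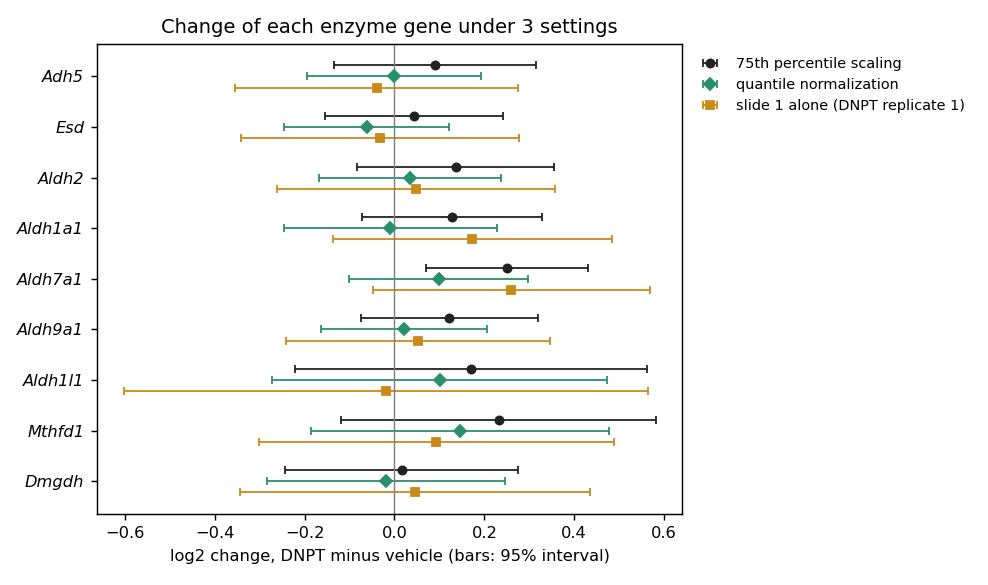
Change of each gene (horizontal axis, log2, DNPT minus vehicle) with its 95% interval under scaling to the 75th percentile (black circles), quantile normalization (green diamonds) and slide 1 alone, which holds DNPT replicate 1 and the 3 vehicle rats (orange squares). With the first scaling all 9 points are positive and the interval of Aldh7a1 alone lies above 0; with quantile normalization every interval includes 0.

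Features as bright as these genes also had mostly positive changes. With scaling to the 75th percentile, brighter features had more positive changes over the whole array: the median change was -0.21 in the dimmest of 20 equal bins of mean signal and 0.13 in the brightest. Aldh2, Aldh1a1, Aldh7a1, Aldh9a1 and Esd belonged to the brightest bin, where the middle 50% of changes ran from 0.03 to 0.20, and Adh5, Aldh1l1 and Mthfd1 to the next, where the median was 0.09. Positive changes were found in 80.5% of the features in the brightest bin and in 72.2% of those in the next. Of the 6892 features at least as bright as Dmgdh, the dimmest of the 9, 72.0% had positive changes (median 0.09) and 24.6% had each DNPT rat above each vehicle rat. The median of 0.13 over the 9 genes thus lay at the median of the brightest bin, and Aldh7a1 (0.25) and Mthfd1 (0.23) lay above the middle 50% of their bins. Quantile normalization brought the brightest bin to 0.01 and the 9 genes to a median of 0.02. These bins were defined after the values of the genes had been seen. What produces the trend with brightness was not tested.

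**Figure D3:**
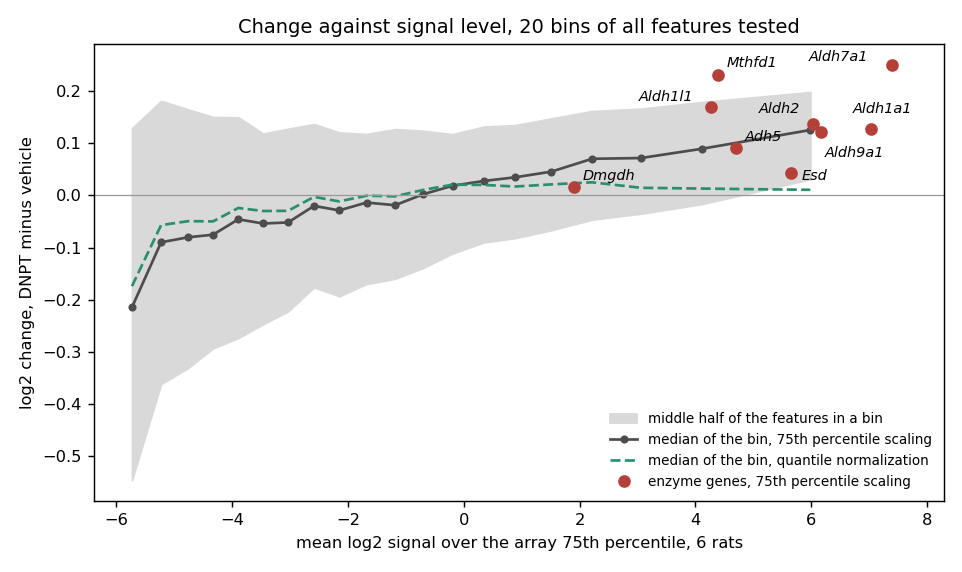
Change (vertical axis, log2, DNPT minus vehicle) against mean signal over the 6 rats (horizontal axis, log2 over the array's 75th percentile) for 20 equal bins of the 34915 features, as the median (grey line), the middle 50% (grey band) and the median after quantile normalization (green dashes), with the 9 genes as red points. The grey line runs from -0.21 in the dimmest bin to 0.13 in the brightest, and Aldh7a1 and Mthfd1 lie above the band at their brightness.

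Across the rats, DNPT replicate 3 had the highest value of the 6 rats in 4 genes, DNPT replicate 2 in 3 and DNPT replicate 1 in 2, and the lowest values fell to vehicle replicates 2 and 3 in 4 genes each and to DNPT replicate 2 in 1. Relative to the vehicle mean, the median over the 9 genes was 0.05 in DNPT replicate 1, with 6 genes positive, 0.11 in replicate 2, with 8, and 0.16 in replicate 3, with 9. Spread within a group had a median SD of 0.11 in DNPT rats, against 0.04 in vehicle rats. Proximal tubule markers gave values of similar size. Their summed signal was 2771 to 3205 in DNPT rats, against 2450 to 2664 in vehicle rats, without overlap. Positive changes were found in 11 of 14 (median 0.11), against 51.9% of all features and 72.0% of those at least as bright as Dmgdh. With quantile normalization 8 of 14 were positive (median 0.02), against 49.7% of all features. The marker median was 0.07 without DNPT replicate 2, 0.18 without DNPT replicate 3 and 0.18 without vehicle replicate 1. In pieces of tissue, a larger share of a cell type cannot be told apart from more transcript per cell. Summed signals, in which the brightest genes weigh most, were also apart in some other marker lists. Red cell genes were at 539 to 604 in DNPT rats and at 406 to 503 in vehicle rats. Intercalated cell genes were at 163 to 183 in DNPT rats and at 123 to 160 in vehicle rats. In each of these lists all 6 genes tested had positive changes, against 51.9% of all features. The lists share the gene Slc4a1, so their counts are not separate. On slide 1 alone, and without DNPT replicate 1, 5 of the 6 intercalated cell changes were positive. Endothelium genes were at 75.6 to 92.1 in DNPT rats and at 71.9 to 75.5 in vehicle rats, with 4 of 6 changes positive. Lymphocyte genes were lower in sum, at 1.61 to 1.75 in DNPT rats and at 1.98 to 2.23 in vehicle rats, but single genes went both ways. Of 6 tested, 4 had negative changes, 2 of these with every DNPT rat lower (8.32% of all features). The other 2 had positive changes, both with every DNPT rat higher (11.9% of all features). Inner medulla genes were at 5.45 to 5.97 in DNPT rats and at 4.77 to 5.30 in vehicle rats, with 2 positive and 2 negative changes among the 4 genes. The sums of thick ascending limb, distal tubule, principal cell, podocyte, macrophage, liver and plasma protein, perirenal fat and adrenal genes overlapped between the groups. The part of these cell types in the enzyme values was not tested.

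Enzymes around these genes were read from the same fit, and none passed in any of the 6 lists. The counts below stand beside 51.9% of all features with a positive change, 11.9% with every DNPT rat higher and 8.32% with every DNPT rat lower. Among features at least as bright as Dmgdh, 72.0% had a positive change and 24.6% had every DNPT rat higher. Among alcohol and aldehyde dehydrogenase relatives, 16 of 20 listed genes were tested, 9 had positive changes and the median was 0.06 (0.04 without DNPT replicate 3). The groups were apart with DNPT higher in 3 of them and with DNPT lower in 0. Adh6a, an alcohol dehydrogenase, was at -2.41, -2.72 and -2.23 in DNPT rats and at -2.92, -3.04 and -2.91 in vehicle rats, so that every DNPT rat was higher (change 0.50, SE 0.14, adjusted p = 0.365). Aldh4a1, of proline breakdown, had a change of 0.26 (SE 0.09, adjusted p = 0.394), or 0.14 with quantile normalization. Aldh1l2, the mitochondrial relative of Aldh1l1, had a change of -0.69 (SE 0.30, adjusted p = 0.423) with overlapping groups, and its second probe gave 0.42.

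Of 18 genes for uptake, storage and interconversion of folate, 16 were tested and 11 had positive changes (median 0.05), and on slide 1 alone 7 had. The median was -0.0023 without DNPT replicate 2 and 0.02 without vehicle replicate 2, but 0.13 without DNPT replicate 1, 0.09 without DNPT replicate 3 and 0.11 without vehicle replicate 1. Folr1, the folate receptor that recovers folate from the filtrate, was at 6.35, 6.52 and 6.61 in DNPT rats and at 6.16, 6.18 and 6.26 in vehicle rats. The groups were apart, with a change of 0.29 (SE 0.10, adjusted p = 0.393) and 0.18 with quantile normalization. Mthfs, which returns folinic acid to the folate pool, had a change of 0.27 (SE 0.09, adjusted p = 0.385), while another of its 3 probes gave -0.05. Mthfd1l, the mitochondrial formate-producing relative of Mthfd1, had a change of 0.33 (SE 0.13, adjusted p = 0.408).

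In the oxidation of choline, sarcosine and glycine, a pathway that holds Dmgdh and Aldh7a1, 18 of 19 genes were tested. Positive changes were found in 16 (median 0.09), against 51.9% of all features. With quantile normalization 11 were positive, against 49.7% of all features. Without DNPT replicate 2 the median was 0.04 with 11 positive, while it was 0.16 without DNPT replicate 1 or vehicle replicate 2, with 17 and 13 positive, and 0.13 without vehicle replicate 1. Etfb, a subunit of the flavoprotein that takes electrons from Dmgdh, was at 6.33, 6.42 and 6.46 in DNPT rats and at 6.04, 5.91 and 5.99 in vehicle rats. Every DNPT rat was higher, by a change of 0.42 (SE 0.08, adjusted p = 0.294), 0.31 with quantile normalization. Its partner subunit Etfa was at 0.02 (SE 0.10) and Etfdh, the next carrier, at 0.0059 (SE 0.16). Both were named after their values were seen. Bhmt, which makes dimethylglycine from betaine, had a change of 0.25 (SE 0.12, adjusted p = 0.446).

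The methionine cycle and transsulfuration list had all 12 genes tested and 7 positive changes (median 0.10). The groups were apart with DNPT higher in 5 (11.9% of all features) and with DNPT lower in 1 (8.32% of all features). Without DNPT replicate 3 the median was -0.02 with 6 positive, on slide 1 alone 0.03, and with quantile normalization 0.05. Mmachc, which prepares cobalamin for methionine synthase, had a change of 0.24 (SE 0.08, adjusted p = 0.393), Mat2b, a regulatory subunit of the S-adenosylmethionine synthetase, 0.21 (SE 0.08, adjusted p = 0.405), and Ahcyl1, a homologue of the hydrolase Ahcy, 0.29 (SE 0.11, adjusted p = 0.408). In each of the 3 the groups were apart, but another probe of Ahcyl1 gave -0.05. Purine and thymidylate synthesis, which consumes one-carbon units, had 6 of 7 genes tested and 4 positive changes (median 0.08, or 0.04 without DNPT replicate 3 and 0.05 without vehicle replicate 2). Ppat, which starts purine synthesis, was at 0.16 (SE 0.11), Adsl at 0.07 (SE 0.08) and Paics at 0.09 (SE 0.10).

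Enzymes that release formaldehyde as a product had 10 of 11 genes tested and 6 positive changes (median 0.11). The median was 0.02 without DNPT replicate 3, 0.22 without DNPT replicate 1 and 0.18 without vehicle replicate 1. Alkbh5, an RNA demethylase, had a change of 0.22 (SE 0.09, adjusted p = 0.416), with -0.0090 from its second probe. Cyp2e1, a cytochrome P450 that oxidises nitrosamines among other small molecules, was at 6.47, 6.41 and 6.50 in DNPT rats and at 6.50, 6.01 and 5.82 in vehicle rats. Vehicle replicate 1 matched the DNPT rats, and the change was 0.35 (SE 0.19, adjusted p = 0.467). Pipox, which oxidises sarcosine and pipecolic acid, had a change of 0.55 (SE 0.32, adjusted p = 0.497) with overlapping groups.

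**Figure D4:**
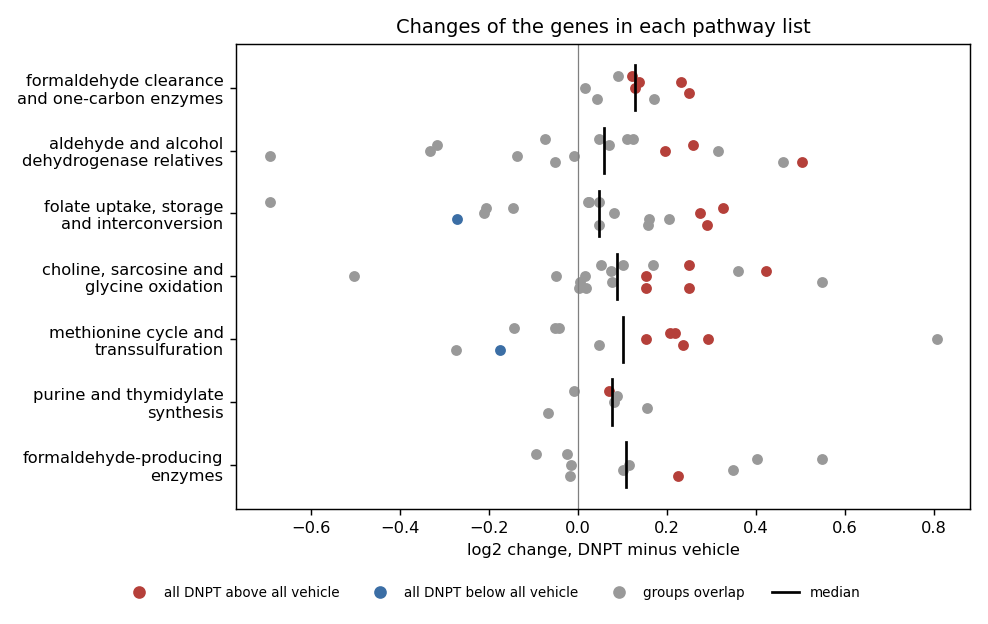
Change of each gene tested (horizontal axis, log2, DNPT minus vehicle) in the 9 enzyme genes and in 6 lists of related enzymes, with red points where every DNPT rat exceeded every vehicle rat, blue where every one was lower, grey where groups overlapped, and a black line for the median. Medians lie between 0.05 (folate uptake and interconversion) and 0.13 (the 9 genes).

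The genes whose signals followed Aldh7a1 most closely over the 6 rats, among 12675 named genes compared, were Acp5, Ppp1r12b, Nop10, Defb11 and Surf2, with Pearson correlations from 0.990 to 0.997. Of those compared, 472 genes had a correlation over 0.9, and all share the same 6 arrays. Acp5, an acid phosphatase, was at 5.42 ± 0.02 in DNPT rats, against 5.12 ± 0.07 in vehicle rats (SD, n = 3 each), a change of 0.31 (SE 0.08). Nop10, a part of small nucleolar ribonucleoproteins, was at 4.65 ± 0.0042 in DNPT rats, against 4.56 ± 0.02 in vehicle rats.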

How the data were processed

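Renal cortex RNA of 6 rats was measured on 1-colour Agilent arrays. Per the file headers and the labels, the authors scanned Cy3-labelled cRNA and deposited, for each spot, an intensity on a linear scale corrected for background by Feature Extraction (version 10.7 per the submitters' processing notes). In the value table deposited with the arrays each number is a linear ratio of the processed signal to a constant close to that array's 75th percentile (column medians 0.112 to 0.116), and its making is not described in the sources. Control spots and 113 flagged values were left out. A probe was tested if well above background on at least 3 arrays with at least 2 values per group (44305 probes). Probe accessions were matched to a RefSeq table of assembly GRCr8 for names only: 28206 probes matched 1 gene and 33331 none. The array design uses an older assembly, so no coordinates are given. The comparison used limma 3.58.1 (lmFit, then eBayes) under R 4.3.3, with no covariate, two-sided tests and an adjusted p threshold of 0.05, and single probes were fitted among all probes tested. Python 3.11.15 with pandas 2.3.3 made the tables, and matplotlib 3.10.9 drew the figures. The fit was tested on simulated data. All members were to be named, with the 3 genes of smallest p per related list and the 5 genes most like the member of smallest p. Members and lists were chosen with earlier results of these data known. The alternatives were quantile normalization, normexp (offset 50, on median signals) with quantile normalization, scaling to the median, other filters, the value table, averaged probes of a gene, a variance trend, a block for slide or for replicate number, only slide 1, and leaving out each sample.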

Additional observations from a re-analysis of the deposited data

How the results depend on the processing

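Over 17 alternatives, no member passed in any (lowest adjusted p 0.170, Aldh7a1). In 4 of them the changes equal the reported ones by construction, and slide as a block repeats slide 1 alone, so 12 give an estimate of their own. Of the 108 changes of single members in these, 96 kept their sign and 12 did not. The 96 include the value table, which has nearly the same scaling, and median scaling, which raised every change by the same amount. Neither could reverse the positive changes reported here, so their part of the count was fixed in advance. Quantile normalization gave -0.00051 for Adh5, -0.062 for Esd, -0.0088 for Aldh1a1 and -0.019 for Dmgdh, 5 positive members, a median of 0.021, and 0 members with p under 0.05 or free of overlap. Normexp with quantile normalization gave -0.011 for Esd, -0.042 for Aldh1a1 and -0.054 for Dmgdh, a median of 0.065 and 1 member free of overlap. Of all 34915 features, 49.7% were positive with quantile normalization and 3948 had an unadjusted p under 0.05. Every DNPT rat was higher in 3441 features and lower in 3073 with quantile normalization, and in 3585 and 3075 with normexp. With slide as a block, and on slide 1 alone, Adh5 was at -0.039, Esd at -0.032 and Aldh1l1 at -0.019, with a median of 0.048, and on slide 1 alone 0 members had p under 0.05. Both rest on DNPT replicate 1. With 1 sample left out in turn, Dmgdh ran from -0.037 (without DNPT replicate 3) to 0.084, the median over members from 0.084 (without DNPT replicate 2) to 0.16, and the members with p under 0.05 from 0 (without vehicle replicate 2) to 1. The cause of these shifts was not tested. The features called over the whole array, 0 in the reported fit, were 2 with normexp, 1 with a variance trend, 1 with slide as a block and, with 1 sample left out, 0 to 623 (without DNPT replicate 1), none of them members; without vehicle replicate 2 they were 3. Without DNPT replicate 1 all DNPT arrays were on slide 2 and all vehicle arrays on slide 1. Treatment cannot be told apart from slide or scan day in those 623 calls. With replicate number as a block 0 members had p under 0.05 (Aldh7a1 0.25, limma adjusted p = 0.551). Deviations of same-numbered rats correlated at -0.18, -0.06 and -0.18, and those of differently numbered rats at -0.20 to 0.33. Deviations within a group sum to 0, so these correlations depend on one another and cannot decide whether the numbers pair the rats. The labels state no pairing. Each group has 3 arrays, and the intervals given show which differences such a design could miss.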

Other observations

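Genes of the mitochondrial folate branch, chosen here after their values were seen, had changes of both signs. Shmt2, which starts the branch from serine, had a change of 0.16 (SE 0.12), and Mthfd1l, which ends it with formate, of 0.33 (SE 0.13). Mthfd2, which lies between them, had a change of -0.27 (SE 0.11), with all 3 DNPT values below all vehicle values, but its probes ran from -0.61 to 0.35. Aldh1l2 was at -2.85, -3.90 and -3.85 in DNPT replicates 1 to 3, against -2.95, -2.93 and -2.65 in vehicle rats. The DNPT rats of slide 2 were low and the one of slide 1 lay within the vehicle range, and on slide 1 alone the change was -0.01. None of the 4 passed.

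Gatm, the first enzyme of creatine synthesis, had a change of -0.50 (SE 0.42) over all rats and 0.31 on slide 1 alone, and Gnmt, which makes sarcosine from glycine, had 0.36 (SE 0.21). Neither passed.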
